A study of Mus musculus with 24 samples.

Results

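The genes described here build, cross-link or regulate the cornified envelope. They comprised 10 named genes (Ivl, Lor, Flg, Crct1, Zfp750, Tgm1, Tgm3, Klk7, Dsg1a and Sbsn) and every Lce and Sprr gene named on the array, which came to 42 of 34832 genes or unnamed probes. These were read by 50 probes, and where a gene had several, the probe with the highest mean log2 signal over all 24 arrays stood for it. The genes were listed by name and the probes chosen by that brightness, which is given as a description only. Flg is named only in the older of the 2 versions of the array design.

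The cornified envelope is the cross-linked protein shell that replaces the plasma membrane of a dying keratinocyte at the skin surface. Involucrin, loricrin, the small proline-rich (Sprr) proteins and the late cornified envelope (Lce) proteins are its precursors, transglutaminases join them, and lipids are attached outside. Most of the precursor genes lie together in the epidermal differentiation complex, and several Sprr genes are also known from airway epithelium under injury.

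Total RNA of primary murine alveolar type II cells, the surfactant-making cells of the lung, was measured on 1-colour (Cy3) Agilent arrays after 3 days at an air-liquid interface, in 6 groups of 4 samples. In the first experiment (16 arrays) cells received vehicle (DMEM medium) or 100 µM NaHS, a fast hydrogen sulfide donor, for 6 h or 24 h. In the other (8 arrays) cells received 100 µM GYY4137, a slow donor, for 24 h in 21% or 85% O2, so the oxygen comparison is one between cells that all carried the donor. No donor-free group of that experiment was analysed here. The labels do not say whether samples came from separate cultures or animals, so p-values measure the spread between these samples, which may be technical.

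Levels are log2 signal minus the array's own 75th percentile, and a level of one probe is never set against that of another. Well above background is the scanner software's flag. Its share of probes was lowest on slide 1, at 54.8% to 57.2%, and ran from 67.7% to 77.5% over the other slides. Each group of the NaHS experiment had replicates 1 and 3 on slide 1 and replicates 2 and 4 on slide 2, whereas all 4 arrays in 21% O2 were on slide 3 and all 4 in 85% O2 on slide 4. Oxygen and slide therefore cannot be told apart. Of 14 alveolar type II markers, 11 or 12 were well above background on all 4 arrays of each group, although the phosphate transporter gene Slc34a2 was so on no array of 5 groups. Of 10 basal cell markers 8 or 9 were, and of 10 markers of cornifying keratinocytes 4 were so in each NaHS or vehicle group and 6 in each GYY4137 group. Markers of other cells were also seen on all 4 arrays of each group. They were 14 of 14 for transitional alveolar, 9 of 10 for alveolar type I and 7 or 8 of 8 for fibroblast markers. For macrophage markers they were 5 to 8 of 8, for club cell markers 5 to 7 of 8 and for ciliated cell markers 5 of 7.

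Cornified envelope genes were measured in all 6 groups, and the number depended on how many arrays had to show them. On all 4 arrays of a group, 16 of the 42 genes were well above background with vehicle at 6 h, 18 with NaHS at 6 h, 17 with vehicle at 24 h, 19 with NaHS at 24 h, 24 with GYY4137 in 21% O2 and 28 in 85% O2. The same 16 genes were so in all 6 groups. These were Crct1, Ivl, Lor, Sbsn, Tgm1, Tgm3 and Zfp750, the Lce1 genes Lce1a2, Lce1c, Lce1f, Lce1h, Lce1i and Lce1m, and Sprr1a, Sprr2a2 and Sprr2k. A further 12 reached all 4 arrays in some groups and 14 in none. On at least 2 of 4 arrays the counts were 26 with vehicle at 6 h, 27 with NaHS at 6 h, 27 with vehicle at 24 h, 30 with NaHS at 24 h, 29 with GYY4137 in 21% O2 and 33 in 85% O2. Both GYY4137 groups thus had more genes than every NaHS or vehicle group on all 4 arrays, whereas on at least 2 arrays the 21% O2 group had fewer than NaHS at 24 h. Every NaHS or vehicle group had arrays on slide 1, where 19 of the 42 genes were well above background on no array. On all arrays of slide 2, 23 genes were. No share over all genes stands beside these counts.

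**Figure D1:**
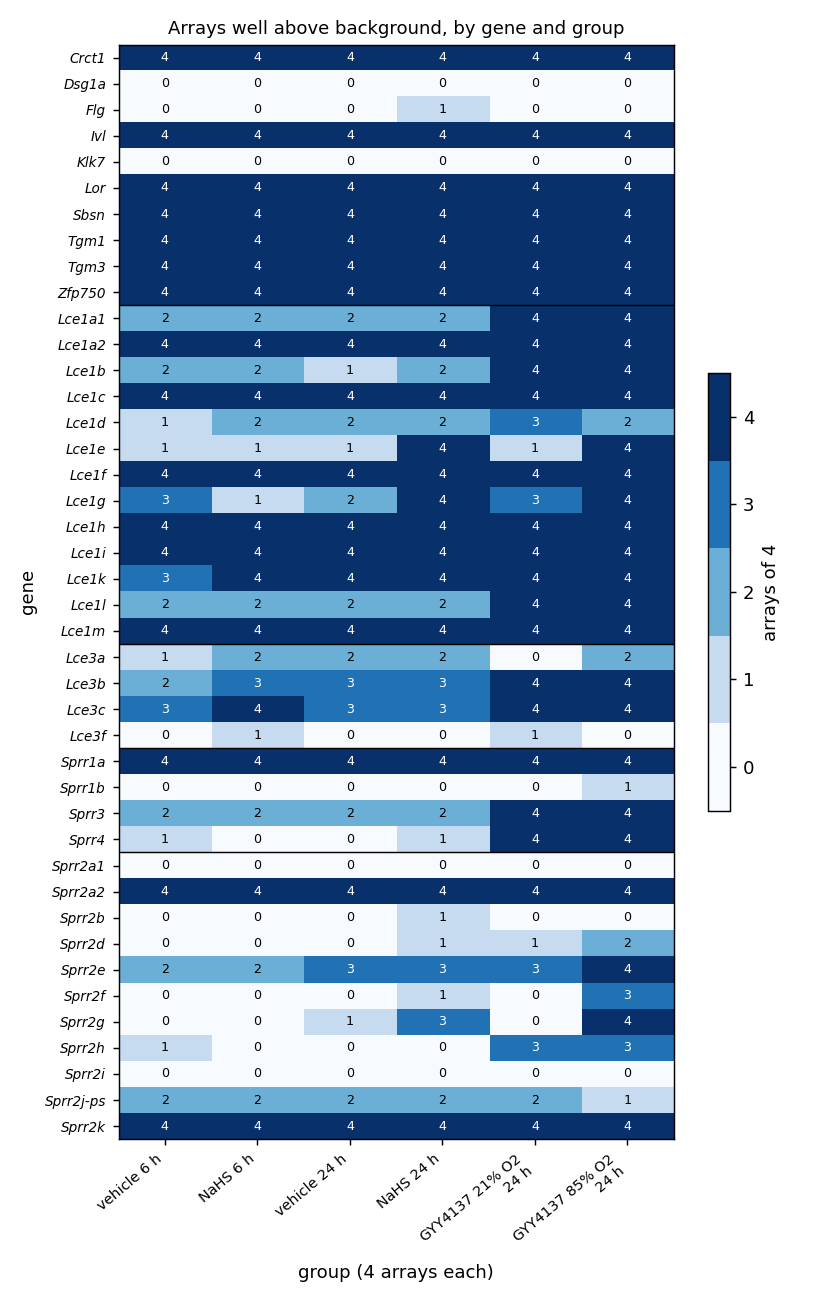
Number of arrays, of 4 in each group (columns), on which the probe of each of the 42 genes (rows) was well above background; horizontal lines part the single genes, Lce1, Lce3, the other Sprr genes and Sprr2. The row is full in all 6 groups for 16 genes, and Dsg1a, Klk7, Sprr2a1 and Sprr2i are at 0 throughout.

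The desmosomal cadherin gene Dsg1a, the desquamation protease gene Klk7, Sprr2a1 and Sprr2i, were well above background on 0 of 24 arrays. Flg, which encodes the filaggrin precursor that bundles keratin, was so on 1 of 24 arrays, as were Sprr1b and Sprr2b. The remaining genes short of all 4 arrays in every group were Lce1d, Lce3a, Lce3f, Sprr2d, Sprr2f, Sprr2h and Sprr2j-ps. Part of the difference in detection ran with the slide. Lce1a1, Lce1l, Sprr3 and Sprr2j-ps were well above background on 8 of 8 arrays of slide 2 and on 0 of 8 of slide 1, and the mean level of Lce1a1 was -7.08 on slide 1 and -2.55 on slide 2. The part of the slide in the number of genes seen on all 4 arrays of slides 3 and 4 was not tested.

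Among the scaffold precursors, Ivl had mean levels of -0.13 ± 0.20 with vehicle at 6 h, 0.09 ± 0.42 with NaHS at 6 h, 0.99 ± 0.34 with vehicle at 24 h, 0.92 ± 0.26 with NaHS at 24 h, 0.07 ± 0.60 in 21% O2 and 1.20 ± 0.54 in 85% O2 (SD, n = 4 each). Lor, the main precursor by mass in skin, stood between 0.46 and 0.64 in the NaHS experiment, at -0.16 ± 0.19 in 21% O2 and at 0.63 ± 0.23 in 85% O2. The mean of Ivl was lowest with vehicle at 6 h and that of Lor in 21% O2, and no test was made across the experiments. Sprr1a stood between 4.03 and 4.82 in the NaHS experiment, and at 2.82 ± 0.94 and 3.14 ± 0.89 in 21% and 85% O2 (SD, n = 4). Sprr2a2 kept within 7.72 and 8.14 in the 6 group means, and Sprr2k within -4.30 and -3.57. The secreted suprabasin gene Sbsn lay between 0.46 and 1.28.

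The transglutaminases, which form the cross-links, differed in spread. Tgm3 had group means between 0.58 and 0.90 with SDs between 0.13 and 0.27. Tgm1 lay between -3.17 and -1.10, and its SD reached 1.60 with vehicle at 6 h, where its 4 arrays ran from -2.80 to 0.89. Zfp750, a transcription factor gene of terminal epidermal differentiation, had group means between -2.07 and -1.90 in the NaHS experiment, against -3.50 ± 0.52 in 21% O2 and -0.74 ± 0.82 in 85% O2 (SD, n = 4).

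**Figure D2:**
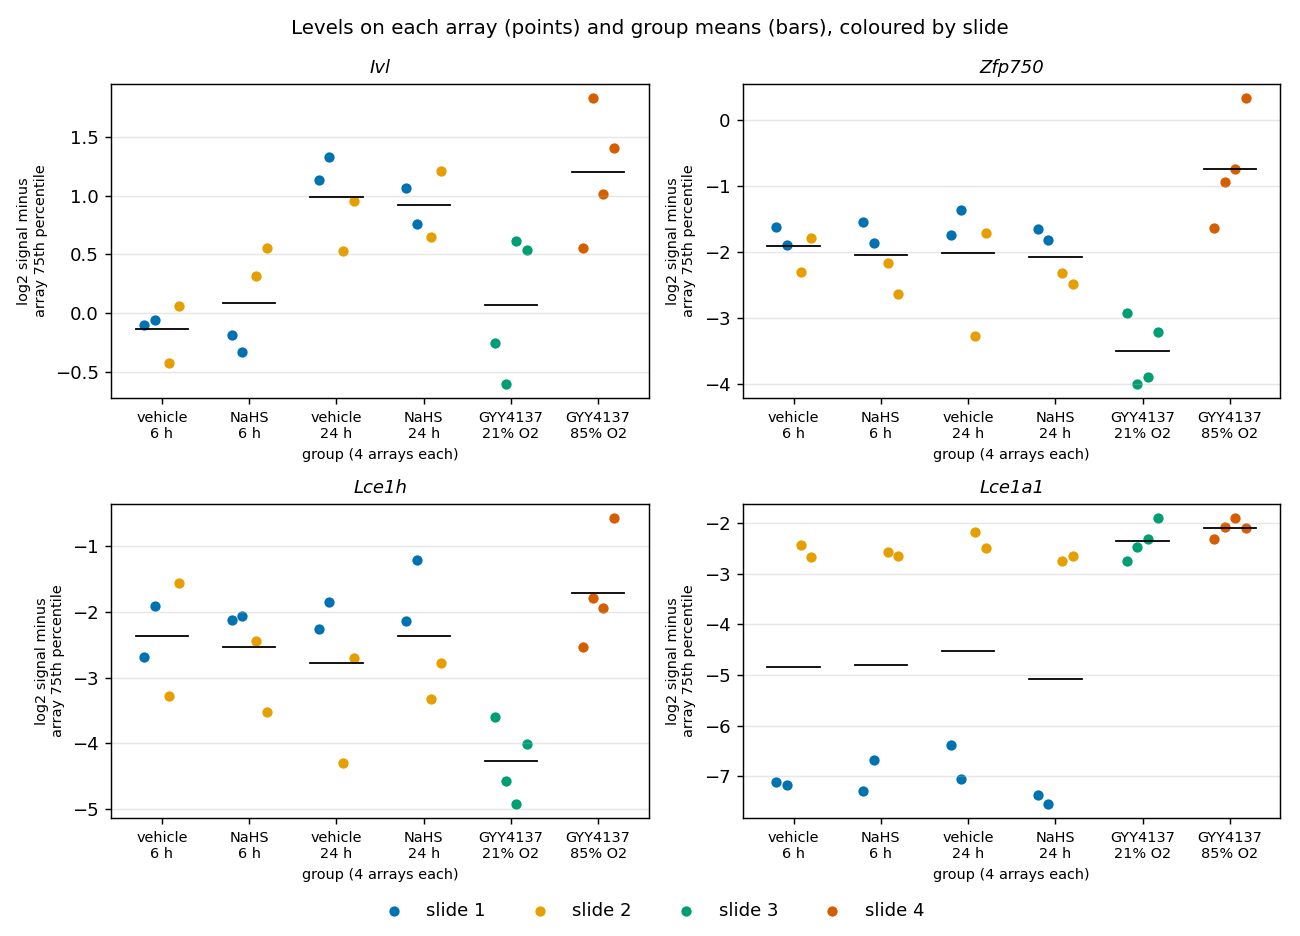
Level (log2 signal minus the array's 75th percentile) of Ivl, Zfp750, Lce1h and Lce1a1 on each of the 24 arrays, by group; points are arrays coloured by slide and bars are group means. The mean of Ivl is higher at 24 h than at 6 h on slides 1 and 2, Zfp750 and Lce1h are lowest in 21% O2, and Lce1a1 parts by slide within each NaHS experiment group.

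The largest called differences in these genes came between 85% and 21% O2 with GYY4137, and 8 of the 13 genes called higher were Lce1 genes, 1 of them, Lce1c, on a probe shared with others. The 2 experiments had separate limma fits, a gene being tested when at least 4 arrays of the experiment were well above background and called at a Benjamini-Hochberg adjusted p under 0.05 over all genes. Of the 42 genes 30 were tested and 15 were called, 13 higher and 2 lower in 85% O2, whereas 17.1% of 27945 genes were called in all, 10.7% higher and 6.36% lower. The 4 arrays of one group lay all above or all below those of the other for 14 of the 30 genes and for 23.9% of all genes tested. All 14 were called, and of the called genes over the whole array 93.2% were without overlap. The median log2 difference was 0.50 over the 30 genes and 0.057 over all genes. Sprr2g passed the filter only through the 85% O2 arrays, and so had to differ. Lce1e, Lce1g and Sprr2e also needed arrays of 85% O2 to pass. They were well above background on 1, 3 and 3 of 4 arrays in 21% O2. The counts are not support for a shared change. In these bulk samples fewer cells of a type and less RNA per cell cannot be told apart.

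Lce genes encode small cysteine-rich precursors that enter the envelope late. Of 13 Lce1 genes, all tested, 8 were called higher and 1 lower. Lce1g had levels of -4.53, -4.79, -5.84 and -4.76 in 21% O2 (replicates 1 to 4) and of -2.47, -2.12, -2.44 and -0.98 in 85% O2. All 4 arrays of 85% O2 lay above all of 21% O2, and the difference was 2.98 ± 0.40 (SE; limma, adjusted p = 0.00371), or 7.87-fold. Lce1i had -2.40, -3.56, -4.25 and -3.32 in 21% O2 and -1.14, -0.54, -0.81 and 0.59 in 85% O2. It rose by 2.91 ± 0.46 (adjusted p = 0.00666), and the groups did not overlap. For Lce1h the levels were -3.59, -4.57, -4.92 and -4.01 in 21% O2 and -2.54, -1.78, -1.93 and -0.57 in 85% O2, again without overlap, a difference of 2.57 ± 0.44 (adjusted p = 0.00845).

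Lce1f rose by 1.95 ± 0.36 (SE; limma, adjusted p = 0.0114), Lce1e by 1.92 ± 0.40 (0.0163), Lce1m by 0.99 ± 0.20 (0.0156) and Lce1b by 0.57 ± 0.12 (0.0173). The probe named for Lce1c, which Lce1e and Lce1f share, read 1.61 ± 0.27 higher (0.0081). In 21% O2 Lce1e was well above background on 1 of 4 arrays and Lce1g on 3, so their lower levels are near the limit of measurement. Background correction by normexp, which compresses dim signals, gave 0.53 for Lce1e and 1.53 for Lce1g. Lce1b was no longer called with median centring, quantile normalization, normexp or the authors' deposited value table, nor without replicate 2 of 21% O2 or replicate 3 of 85% O2.

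Lce1k went the other way, from -2.76, -1.94, -1.53 and -1.52 in 21% O2 to -3.41, -2.46, -3.15 and -3.18 in 85% O2. It fell by 1.11 ± 0.31 on the log2 scale (SE; limma, adjusted p = 0.0438), and the lowest array of 21% O2 lay below the highest of 85% O2. The call was lost when any of replicates 2, 3 and 4 of 21% O2 or 1, 3 and 4 of 85% O2 was left out (adjusted p up to 0.106). Lce3b, of another Lce subfamily, fell from -3.41, -2.95, -2.34 and -2.88 to -3.93, -3.78, -4.40 and -4.05, by 1.14 ± 0.23 (adjusted p = 0.0162). Its groups did not overlap, and without replicate 3 of 85% O2 its adjusted p was 0.0505. Lce1a1 (0.26 ± 0.19), Lce1a2 (-0.09 ± 0.10), Lce1d (-1.14 ± 0.54), Lce1l (-0.01 ± 0.29) and Lce3c (-0.65 ± 0.34) did not pass (SE; adjusted p between 0.168 and 0.987).

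**Figure D3:**
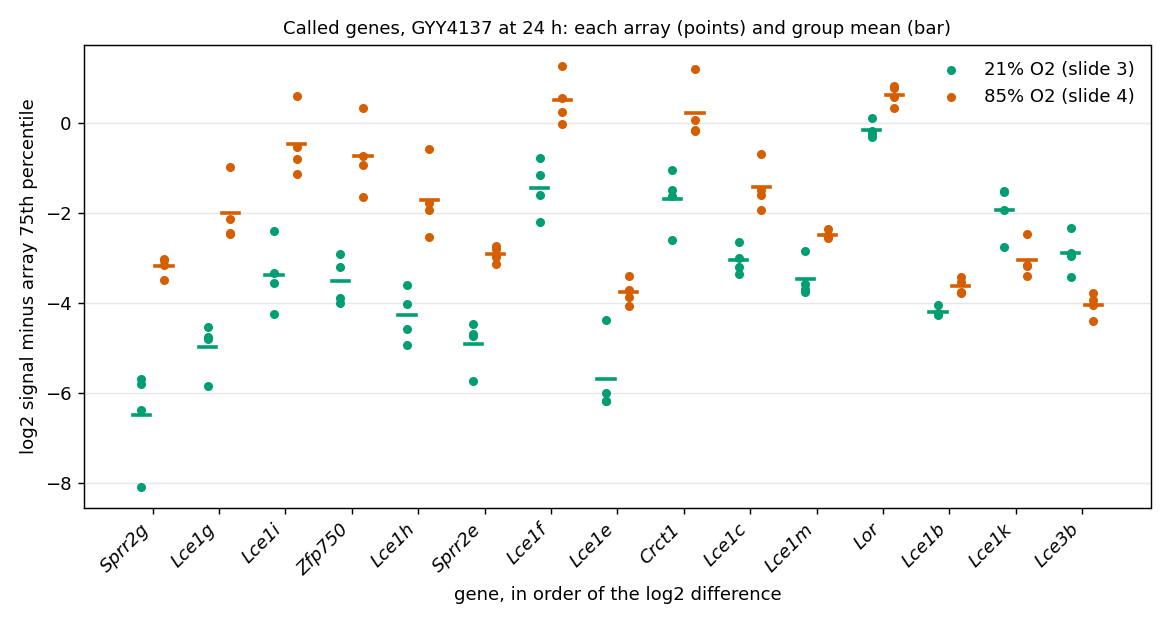
Level (log2 signal minus the array's 75th percentile) of the 15 genes called between 85% and 21% O2 with GYY4137, in order of the difference; points are the 4 arrays of each group and bars are means. Lce1k and Lce3b are the 2 lower in 85% O2, and Lce1k is the 1 gene whose groups overlap; genes were shown for being called, and 93.2% of called genes of the whole array are without overlap.

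Some Lce1 copies are alike in the letters before their starts, and others are less so. Promoters were matched for 7 of the 8 Lce1 genes called higher (Lce1f had no match). The 60 bases before the start of these 7 and of Lce1k and Lce3b, which fell, are set out here to show how far they are alike, read 5′ to 3′ on the gene's strand from RefSeq promoters (GRCm38.p6). Capitals mark TCAGAATAAAAGGAC, the longest run of letters shared by Lce1c, Lce1e, Lce1g, Lce1h and Lce1i, which holds TATA-like letters. Those 5 were chosen after their letters were seen, and Lce1b and Lce1m, which also rose, do not hold the run.
Lce1c: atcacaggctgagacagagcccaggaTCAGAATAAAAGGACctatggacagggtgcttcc
Lce1e: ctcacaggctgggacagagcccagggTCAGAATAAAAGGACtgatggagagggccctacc
Lce1g: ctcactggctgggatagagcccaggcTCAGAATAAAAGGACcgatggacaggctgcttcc
Lce1h: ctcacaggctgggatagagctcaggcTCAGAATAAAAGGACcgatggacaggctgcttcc
Lce1i: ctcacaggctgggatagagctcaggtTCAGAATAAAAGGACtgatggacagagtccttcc
Lce1b: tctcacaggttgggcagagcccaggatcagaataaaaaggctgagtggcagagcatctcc
Lce1m: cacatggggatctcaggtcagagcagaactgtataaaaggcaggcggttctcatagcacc
Lce1k: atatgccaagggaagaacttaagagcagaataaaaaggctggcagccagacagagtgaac
Lce3b: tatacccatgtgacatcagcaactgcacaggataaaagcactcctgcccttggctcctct
They lie on the plus strand at chr3:92679187-92679246 (Lce1c) and chr3:92932919-92932978 (Lce3b), and on the minus strand at chr3:92656927-92656986 (Lce1b), chr3:93019062-93019121 (Lce1m), chr3:92709075-92709134 (Lce1e), chr3:92752339-92752398 (Lce1g), chr3:92765066-92765125 (Lce1h), chr3:92778900-92778959 (Lce1i) and chr3:92807892-92807951 (Lce1k). Searched on the gene's strand over the 250 bases before each start, this run occurred in 6 of 27025 genes (0.0222%). They were those 5 and a gene that is not among those analysed here. Promoters of 36 of the 42 genes were matched, 9 of them of genes called higher, and 5 of those 9 held it. Since the run was derived from those 5, its presence in them is no finding, and it describes the likeness of those 5 copies only.

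Likeness also limits what a probe can tell apart. The Lce1c probe (mm9 chr3:92484400-92484459, plus strand) carries the accessions of Lce1c, Lce1e and Lce1f, and its letters are shown because its value can come from any of the 3.
Lce1c probe: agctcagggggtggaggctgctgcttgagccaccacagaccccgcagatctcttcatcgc
A dimmer probe with the accession of Lce1c alone differed by 0.17 ± 0.41 (SE; limma, adjusted p = 0.8), so the rise read on the shared probe cannot be assigned to Lce1c. The dimmer Lce1i probe rose with the brighter, by 2.78 ± 0.50 (adjusted p = 0.0105). The Lce1a2 probe is shared with Lce1a1, and the Sprr2a2 probes with Sprr2a1.

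Along chromosome 3 the tested genes lie in the order of the plot, from Lor at mm9 chr3:91884206-91884265 to Lce1m at chr3:92821829-92821888. Lce1e, Lce1f, Lce1g, Lce1h and Lce1i follow one another over 627.2 to 697.0 kb from the Lor probe, and each rose. Lce1k, the next tested gene at 726.0 kb, fell. Crct1 and Lce1m, at 934.0 and 937.6 kb, rose, beyond Lce3b and Lce3c. Of the 42 genes 36 lie on this chromosome. The rise in Zfp750, on chromosome 11, was read outside it.

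**Figure D4:**
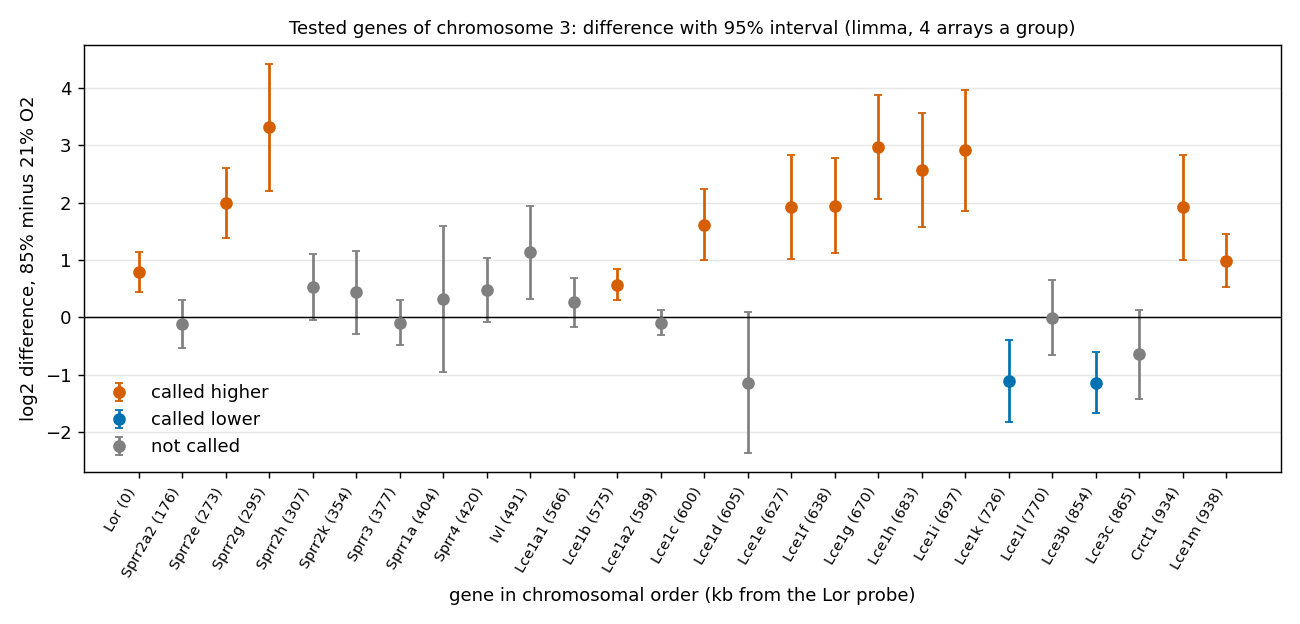
Log2 difference (85% minus 21% O2 with GYY4137) with its 95% interval for each tested gene of chromosome 3, in chromosomal order; numbers in brackets are kb from the Lor probe. Lce1e to Lce1i, at 627 to 697 kb, are all higher, and the neighbouring Lce1k is lower.

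Single genes of the envelope also rose in 85% O2. Zfp750 had levels of -2.92, -3.99, -3.89 and -3.20 in 21% O2 and -1.64, -0.93, -0.74 and 0.34 in 85% O2. The groups did not overlap, and the difference was 2.76 ± 0.42 (SE; limma, adjusted p = 0.00584). Crct1, a small cysteine-rich gene of the same complex, went from -1.04, -1.62, -1.48 and -2.59 to -0.18, 0.07, -0.16 and 1.19, a rise of 1.92 ± 0.40 (adjusted p = 0.0168), and its adjusted p was 0.0532 with the replicate number as a block. Lor had -0.25, -0.32, -0.18 and 0.12 in 21% O2 and 0.33, 0.58, 0.78 and 0.82 in 85% O2, and rose by 0.79 ± 0.15 (adjusted p = 0.0135). The groups overlapped for neither gene.

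Ivl had -0.26, -0.60, 0.61 and 0.53 in 21% O2 and 0.56, 1.83, 1.02 and 1.41 in 85% O2. The groups overlapped, and the difference of 1.13 ± 0.35 did not pass (SE; limma, adjusted p = 0.0595). It was called by its dimmer probe (1.20 ± 0.28, adjusted p = 0.0235), with array weights, with normexp, and without replicate 1 of 85% O2. Tgm1 (-0.73 ± 0.44), Tgm3 (0.22 ± 0.17) and Sbsn (0.36 ± 0.29) did not pass.

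Sprr proteins are proline-rich cross-bridging precursors. Sprr2e went from -5.73, -4.73, -4.69 and -4.46 in 21% O2 to -3.14, -2.72, -2.81 and -2.98 in 85% O2, without overlap, a rise of 1.99 ± 0.27 (SE; limma, adjusted p = 0.00374). Sprr2g was well above background on 4 of 4 arrays in 85% O2, at -3.48, -3.02, -3.04 and -3.16, and on 0 of 4 in 21% O2, where it read -5.81, -6.37, -8.08 and -5.69. With the background handling used here its level was at least 6.50-fold higher in 85% O2. This bound was set against the dimmest signal called well above background on each array of 21% O2. The adjusted p of 0.00506 (limma) is no support, since the gene passed the filter only through 85% O2. The normexp correction gave a log2 difference of 0.996 for this dim gene, which is below that bound, and 0.79 for Sprr2e. The bound therefore depends on the background correction. Sprr2f, not tested, was well above background on 3 of 4 arrays in 85% O2 and 0 of 4 in 21% O2. Its mean was 2.91-fold higher when compared in the same way, with the same limit. That mean includes an array of 85% O2 not well above background, so the value is not a lower bound.

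The other tested Sprr genes did not pass. They were Sprr1a (0.32 ± 0.56), Sprr2h (0.53 ± 0.25), Sprr2k (0.43 ± 0.32), Sprr3 (-0.09 ± 0.17), Sprr4 (0.48 ± 0.24) and Sprr2a2 (-0.11 ± 0.18), all as log2 difference ± SE. The 95% interval for Sprr1a ran from -0.96 to 1.59 and that for Sprr2a2 from -0.53 to 0.31. Probes of Sprr2a2 disagreed, since a dimmer one, also shared with Sprr2a1, fell by 1.89 ± 0.37 (limma, adjusted p = 0.0131).

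Arrays within a group moved together in these genes. Of the 13 genes called higher, replicate 4 was the highest of the 85% O2 arrays in 10 and replicate 1 the lowest in 11. In 21% O2, replicate 1 was the highest in 10 and replicate 3 the lowest in 7. Centring each array on its median moved all differences by -0.144, to a median over all genes of -0.087, and the share of all called genes that were higher went from 62.7% to 34.6%. Among the 42 genes 12 were then higher and 2 lower, against 13 and 2.

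TGANTCA, the AP-1 consensus, which reads the same on both strands, was found in the 250 bases before the start of 13 of the 36 matched genes (36.1%) and of 7.82% of all 27025 genes. Those 13 were Flg, Ivl, Lor, Sbsn, Sprr1a, Sprr1b and 7 Sprr2 genes, with no Lce gene among them. The same 7 Sprr2 genes, and 1.81% of all genes, held the octamer ATTTGCAT on either strand. Of the 9 called higher with a promoter, 2 held TGANTCA, Lor and Sprr2e. On either strand, CCNNAGGC, a motif reported for ZNF750, the human counterpart of Zfp750, was in 3 of the 36 (8.3%) and in 22.7% of all genes. The 200 bases before the start are shown with TGANTCA matches in capitals (GRCm38.p6, RefSeq). They are those of Ivl (chr3:92573736-92573935, minus strand), Sprr2e (chr3:92351943-92352142, plus strand) and Sprr1a (chr3:92485882-92486081, minus strand). Ivl was called higher at 24 h than at 6 h with vehicle, a call lost under several alternatives given below. Sprr2e was called higher in 85% O2, and Sprr1a passed no test.
Ivl: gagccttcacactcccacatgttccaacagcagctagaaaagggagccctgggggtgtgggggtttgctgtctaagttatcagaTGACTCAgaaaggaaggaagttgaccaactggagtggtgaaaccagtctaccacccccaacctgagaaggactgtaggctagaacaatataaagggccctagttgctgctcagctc
Sprr2e: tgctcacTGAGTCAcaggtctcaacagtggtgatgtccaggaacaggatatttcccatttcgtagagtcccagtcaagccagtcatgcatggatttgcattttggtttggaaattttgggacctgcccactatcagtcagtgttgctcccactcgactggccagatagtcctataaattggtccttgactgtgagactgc
Sprr1a: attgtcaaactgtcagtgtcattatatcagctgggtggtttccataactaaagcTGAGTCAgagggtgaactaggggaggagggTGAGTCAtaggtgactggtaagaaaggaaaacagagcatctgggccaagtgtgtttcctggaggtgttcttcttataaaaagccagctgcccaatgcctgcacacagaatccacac
A match is a description of these letters and no sign that a factor binds there.

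Between 6 h and 24 h with vehicle, Ivl was the 1 gene of the 30 tested that changed, where 1.16% of 27177 genes were called. At 6 h its levels were -0.10, -0.42, -0.06 and 0.06, and at 24 h 1.14, 0.53, 1.33 and 0.96. All arrays at 24 h lay above all at 6 h, and the difference was 1.12 ± 0.22 (SE; limma, adjusted p = 0.0338). It was 1.32 within slide 1 and 0.92 within slide 2, where 2 arrays a group gave adjusted p = 0.15 and 0.445, and 1.12 with slide as a block (adjusted p = 0.0225). The call was lost with median centring, with no filter, with the dimmer Ivl probe (1.15 ± 0.26, adjusted p = 0.0528) and with only the vehicle groups in the fit. It was also lost without any 1 of the 4 vehicle arrays at 6 h, without replicates 1, 3 or 4 of vehicle at 24 h, without replicate 2 of NaHS at 6 h and without replicate 1 of NaHS at 24 h. All 6 h arrays sat in row 1 of their slides and all 24 h arrays in row 2, so time and row cannot be told apart.

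With NaHS, Ivl was at -0.19, 0.32, -0.33 and 0.56 at 6 h and at 1.07, 0.65, 0.76 and 1.21 at 24 h. The groups did not overlap, but the difference of 0.83 ± 0.22 did not pass (SE; limma, adjusted p = 0.234), and 0 of the 30 genes did, where 0.0405% of all genes were called. For Ivl the difference between the time effects was -0.29 ± 0.31 and did not pass (adjusted p = 1). Sprr2g was well above background on 0 of 4 arrays in each 6 h group, on 1 of 4 with vehicle at 24 h and on 3 of 4 with NaHS at 24 h. Set against the 6 h arrays in the way given above, its mean at 24 h was 1.36-fold higher with vehicle and 1.52-fold higher with NaHS. Neither difference passed (limma, adjusted p = 0.253 and 0.632). Both 24 h means include arrays not well above background, so these values are not lower bounds. In that experiment Sprr2g passed the filter only through arrays at 24 h. Lce1g (-0.88 ± 0.52) with vehicle, and Sbsn (-0.55 ± 0.33) with NaHS, were the next by p.

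NaHS changed none of these genes past the threshold. Vehicle arrays all sat in columns 1 and 2 of their slides and NaHS arrays in columns 3 and 4. Treatment and column therefore cannot be told apart. limma called 0 of the 30 at 6 h, 0 at 24 h and 0 for the difference between those effects, and 0% of all genes in each, with 154, 604 and 296 of all genes at an unadjusted p under 0.05. Of the 30 genes 0, 1 and 0 were. At 24 h Lce1e was at -5.08, -4.99, -4.43 and -4.63 with NaHS and at -6.20, -6.71, -5.17 and -5.73 with vehicle. The groups did not overlap, and the flag for well above background was set on 4 of 4 arrays against 1 of 4. Lce1e needed arrays of NaHS at 24 h to pass the filter. In each other group of that experiment it was well above background on 1 of 4 arrays. The lack of overlap is therefore no support, and no share over all genes stands beside it. The difference of 1.17 ± 0.41 did not pass (SE; limma, adjusted p = 1).

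The next by p at 24 h were Lce1m (0.57 ± 0.31) and Lce1a2 (-0.33 ± 0.23). At 6 h they were Lce1g (-0.65 ± 0.52), Sprr2g, which was well above background on no array of either group, and Ivl (0.22 ± 0.22), and for the difference between the effects Lce1g (1.38 ± 0.74), Lce1e (0.88 ± 0.58) and Lce1f (0.85 ± 0.67). The 95% interval for Ivl at 24 h, with NaHS less vehicle, ran from -0.54 to 0.41.

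Other genes of the pathway were counted from lists chosen with earlier results known. Between 85% and 21% O2, 2 of 15 tested envelope scaffold genes rose, trichohyalin, Tchh (1.42 ± 0.17, adjusted p = 0.00252), and its relative Tchhl1 (1.48 ± 0.40, 0.0381), as log2 difference ± SE (limma). Of 9 cross-linking and processing genes, the channel-activating protease gene Prss8 rose (1.08 ± 0.32, 0.0493) and the tissue transglutaminase gene Tgm2 fell by 1.03 ± 0.17 (0.00749). Among 13 desquamation proteases and inhibitors, the cystatin gene Cst6, an inhibitor of cathepsins that act in the epidermis, rose by 1.39 ± 0.19 (0.0041), and the cathepsin D gene Ctsd by 0.71 ± 0.13 (0.0104). The desmosome list had 2 of 11 higher, Perp, a p53-induced desmosomal protein gene (1.75 ± 0.21, 0.00287), and the desmoglein gene Dsg2 (0.67 ± 0.16, 0.0275).

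Of 14 barrier lipid genes, the lipoxygenase gene Alox12e (1.15 ± 0.25, adjusted p = 0.0191) and Lass3, now Cers3, a ceramide synthase gene (1.15 ± 0.27, 0.0237), rose in 85% O2 (SE; limma). Of 26 regulators of epidermal differentiation 5 were called higher and 0 lower. Among those not called were Trp63 (-0.40 ± 0.15, 0.0973) and Klf4 (-0.37 ± 0.48, 0.623). Fosl1, an AP-1 subunit gene, rose by 1.08 ± 0.18 (0.00804), the barrier regulator gene Grhl3 by 1.23 ± 0.28 (0.0215) and Tfap2a, which encodes the factor AP-2 alpha, by 0.89 ± 0.21 (0.0248). Of 8 epidermal S100 genes 0 were called. The share called higher was 13.3% for scaffold, 11.1% for cross-linking, 15.4% for desquamation, 18.2% for desmosome, 14.3% for lipids and 19.2% for regulators, beside 10.7% of all genes. For cross-linking 11.1% were called lower, beside 6.36% of all genes. Each share rests on 1, 2 or 5 genes, and no change of the pathway is read from it. List medians lay between 0.22 and 0.44, beside 0.057. With vehicle, 24 h against 6 h, Tgm2 (0.63 ± 0.14, adjusted p = 0.0435) and the antioxidant regulator gene Nfe2l2 (0.45 ± 0.09, 0.0385) rose, and 0 genes of the other 5 lists were called.

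Markers of cell types were counted between 85% and 21% O2, where 10.7% of all genes were called higher and 6.36% lower. Of 8 tested markers of cornifying keratinocytes 0 were called. Krt1 (-1.30 ± 0.41, limma, adjusted p = 0.0636) and Krt10 (0.35 ± 0.11, 0.0575) went opposite ways and did not pass. The list's summed signal was 1.64 to 3.35 times the array's 75th percentile in 21% O2 and 1.73 to 2.22 times in 85% O2. Dsc1, a suprabasal desmosomal cadherin gene, was well above background on no array of either group. Of 9 basal markers 2 rose, Serpinb5 (1.11 ± 0.29, limma, adjusted p = 0.0349) and Ngfr (0.57 ± 0.17, 0.0495). Among those not called were Krt14 (-1.73 ± 0.81, 0.169), Trp63 (-0.40 ± 0.15, 0.0973) and Krt5 (0.24 ± 0.21, 0.458). The summed signal of the basal list was 36.6 to 69.9 in 21% O2 and 46.6 to 68.3 in 85% O2. Of 12 alveolar type II markers 1 fell, Lamp3, by 1.04 ± 0.13 (0.00335), and the sum was 46.0 to 68.4 and 37.3 to 49.2.

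Of 14 markers of transitional alveolar cells, the cell cycle inhibitor gene Cdkn1a (2.03 ± 0.17, limma, adjusted p = 0.00108) and the claudin gene Cldn4 (1.57 ± 0.39, 0.0288) rose and Mdk fell by 0.98 ± 0.14 (0.00418). Of 5 ciliated cell markers Foxj1 and Tppp3 rose, of 7 club cell markers Bpifa1 rose, and of 8 fibroblast markers Thy1 and of 10 alveolar type I markers Rtkn2 fell. Of 8 macrophage markers 0 were called. The share called higher was 22.2% for basal, 14.3% for transitional, 40% for ciliated and 14.3% for club markers, beside 10.7% of all genes. The share called lower was 8.33% for type II, 7.14% for transitional, 12.5% for fibroblast and 10% for type I markers, beside 6.36%. Each share rests on 1 or 2 genes, and no change in a cell type is read from it. The part of these cells in the rise of the envelope genes was not tested.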

How the data were processed

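The authors scanned 24 1-colour arrays and deposited intensity values (processed signals) made with Agilent Feature Extraction 10.7.3.1, per the submitters' processing notes and the file headers, with background subtracted and no normalization between arrays. The authors also deposited log2 values, whose steps are not given in the sources used here and which served as an alternative. Here log2 signals of the spots of a probe were averaged after control and outlier spots were left out, and each array's 75th percentile was subtracted. A gene was tested where at least 4 arrays of its experiment were well above background. Group means were fitted with limma 3.58.1 (R 4.3.3) (lmFit, eBayes, Benjamini-Hochberg over all genes, threshold 0.05), and files were read with data.table (version 1.17.8). Python 3.11.15, numpy 2.4.6, pandas 2.3.3 and matplotlib 3.10.9 served for the rest. Probe coordinates are on mm9. Of the 42 probes that stood for the genes 40 were matched to RefSeq through an accession.

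The genes and lists were chosen with earlier results of these data known. Genes named were those well above background on all 4 arrays of a group, called in a comparison or among the 3 smallest p of one, and up to 3 called per list. Simulated data had 100 genes changed by 1 and 100 by 2 on the log2 scale, with independent normal noise and the other genes unchanged. In the oxygen comparison (27945 genes) 49% and 81% of these were recovered, and 52% and 67% in the vehicle time comparison (27177 genes). Far fewer genes were changed in the simulation than the 17.1% called in the oxygen data. These shares therefore do not give the recovery in that comparison. The number of arrays limits precision.

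Same-numbered samples deviated together, with correlations of 0.188 to 0.296 in the GYY4137 experiment (other pairs -0.237 to 0.219) and 0.533 to 0.776 in the NaHS experiment, where other samples on the same slide gave 0.411 to 0.711. These ranges overlap, so the numbers may pair samples, from the data only, and this was not settled. In the GYY4137 experiment the replicate number is also the column of the array on its slide. Number and position there cannot be told apart. In the NaHS experiment any pairing runs with the slide. Alternatives were the background correction, scaling, filter, probe, array weights, replicate and slide blocks, the authors' values and leaving out each array.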

Additional observations from a re-analysis of the deposited data

Results flagged for a closer look

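Single samples stood apart from their group in 2 of 122 sets of 4 arrays, by the gap to the nearest value over the whole range, and chance flags about 1 in 20 such sets. Sprr2k in replicate 4 of vehicle at 6 h, on slide 2, had a level of -4.96, and the other 3 arrays lay between -3.48 and -3.35. Lce1l in replicate 3 of GYY4137 in 85% O2 had -3.41, and the other 3 lay between -3.73 and -3.68.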

How the results depend on the processing

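Of the 15 genes called between 85% and 21% O2, between 12 and 15 kept their call under each alternative, and between 12 and 16 genes were called when each array was left out in turn. With the replicate number as a block, in view of the possible pairing, 14 were called in that comparison, Crct1 being lost. With vehicle between 6 h and 24 h 1 gene, Ivl, was called. For the latter, 0 genes were called with no filter, with centring on the median, with the next brightest probe, within slide 1, within slide 2 and with only the 2 groups compared, and between 0 and 1 when each array was left out (Ivl kept its call in 7 of 16). NaHS effects gave 0 under every alternative run. Well above background on at least 2 of 4 arrays were 26 genes with vehicle at 6 h, 27 at 24 h and 30 with NaHS at 24 h, the last above the 29 with GYY4137 in 21% O2 (33 in 85% O2), and 29 with vehicle at 24 h were significantly, rather than well, above background. No called gene changed sign in any alternative run. A fit of only the groups compared could not be made for the difference between NaHS effects, and the next brightest Crct1 probe was too dim to test. Dim genes (Sprr2g, Lce1e, Lce1b, Lce1g) are limited by signal over background.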
